A study of Mus musculus with 20 samples.

Results

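Caspases and proteins of the BCL2 family carry out programmed cell death. The genes described here are 8 of that machinery: Casp6, Casp8, Casp9, Apaf1, Bax, Bak1, Bcl2l1 and Mcl1. They were followed through every probe set that the platform annotation gives to exactly 1 of these symbols. Of the 34945 probe sets with 1 gene symbol, 20 met this rule. They cover 7 of the 8 genes, since no probe set of the annotation used here carried the symbol Bax. Each of 20 male C57BL/6J mice gave liver RNA for 1 array, at an age of 8 weeks and after a fast of 16 h. In the MSXH group (labelled 002MSXH), 10 mice ate a diet with 45 kcal% fat that held 0.02% of the maple syrup extract the labels call MSXH, and in the HFD group 10 mice ate the 45 kcal% fat diet alone, both for 4 weeks. All mice had first eaten a low-fat diet with 10 kcal% fat during an acclimation of 1 week. The genes were chosen from results of the MSXH against HFD contrast, with the group differences of all genes, that of Casp9 among them, in view. Their own differences are therefore given as a description. Counts of calls stand beside the share over all probe sets, and nothing is read from them. The intervals show only the precision that the deposited values of 10 mice per group allow.

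In the death receptor pathway, ligands such as FasL bring the adaptor FADD and procaspase-8 together at the cell membrane. In the mitochondrial pathway, BAX and BAK open the outer membrane, cytochrome c leaves, and APAF1 assembles with it into the apoptosome that activates caspase-9. BCL-XL (from Bcl2l1) and MCL1 hold BAX and BAK in check, and in the mouse liver the loss of either from hepatocytes leads to hepatocyte death. Both pathways end in executioner caspases.

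The results below turn on 2 genes, Casp9 for its difference between the diets at 1 probe set and Mcl1 for its differences between mice, and their upstream regions are printed here to place them. These are the 250 bases before the gene's start from RefSeq (GRCm38.p6), 5′ to 3′. Casp9 (gene ID 12371) is at chr4:141793362-141793611 and Mcl1 (gene ID 17210) at chr3:95658471-95658720, both on the plus strand. Capitals mark GC boxes (GGGCGG, searched on both strands, with no match overlapping one of another motif).
Casp9: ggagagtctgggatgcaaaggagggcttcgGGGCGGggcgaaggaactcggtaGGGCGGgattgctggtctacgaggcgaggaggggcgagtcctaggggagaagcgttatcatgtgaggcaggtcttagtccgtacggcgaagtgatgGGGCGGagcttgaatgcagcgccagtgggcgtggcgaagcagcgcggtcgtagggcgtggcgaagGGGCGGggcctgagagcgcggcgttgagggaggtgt
Mcl1: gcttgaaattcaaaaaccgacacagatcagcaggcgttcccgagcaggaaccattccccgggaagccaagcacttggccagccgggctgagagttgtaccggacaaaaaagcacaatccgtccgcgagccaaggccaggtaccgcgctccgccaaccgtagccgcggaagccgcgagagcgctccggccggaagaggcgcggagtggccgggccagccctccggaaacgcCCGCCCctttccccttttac
The Casp9 window held 4 GC boxes and the Mcl1 window 1, and neither held a CCAAT box (CCAAT) or a TATA box (TATAAA). Among 32841 RefSeq windows of 250 bases, 32.7% held a GC box, 33.9% a CCAAT box and 12.4% a TATA box. All 8 genes matched the RefSeq table. Of the others, Casp6 had 1 GC box, Apaf1 and Bax had 2 each, Casp8 had 1 CCAAT box, and Bak1 and the 3 Bcl2l1 windows had none of the motifs. These matches describe the letters of the windows and say nothing of what binds there.

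The deposited values, on a log scale from 5.17 to 15.01, differed little from array to array: over the 20 arrays the SD was 10.7 millionths of a log unit for the median probe set and under 0.001 for 97.6% of them. Values of single mice are therefore given as deviations from a probe set's mean over the 20 arrays, in millionths of a log unit, and not as folds. The standardized difference is the MSXH mean minus the HFD mean over the pooled SD within groups, with its 95% confidence interval. The hepatocyte markers (7 of 8 measured, such as Alb and Ttr) had mean levels of 11.5 to 14.7. The 8 skeletal muscle markers summed to 69.4 in MSXH 4 and 63.5 in MSXH 6, against at most 51.0 in the other MSXH mice and between 50.1 and 50.9 in the HFD mice. MSXH 4 and MSXH 6 also had the highest array medians (6.52255 and 6.52235, with 6.52172 the next), so that centring the arrays lowers MSXH for every gene. In these livers fewer cells of a type and less RNA per cell cannot be told apart.

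By limma, 0 of the 20 probe sets of the caspase and BCL2 family genes had an adjusted p under 0.05 (Benjamini-Hochberg over all 34945), against a background of 0% (0 of 34945). Of the 20, 10 had a higher mean in MSXH, as had 53% of all probe sets. The median standardized difference was 0.0108 over the 20 and 0.0429 over all probe sets. Member probe sets higher in MSXH numbered 2 of 20 after quantile normalization and 0 of 20 after centring on array medians. The median of all probe sets was itself -0.591 and -0.662 there. Without MSXH 4 and MSXH 6 the members higher numbered 12 of 20 as deposited, 14 after quantile normalization and 9 after centring. The median of all probe sets was then 0.0484, 0.0239 and -0.0377. Of all probe sets that passed 0.05 unadjusted, MSXH had the higher mean in 2108 of 3746 as deposited, 22 of 1756 after quantile normalization and 32 of 424 after centring.

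**Figure D1:**
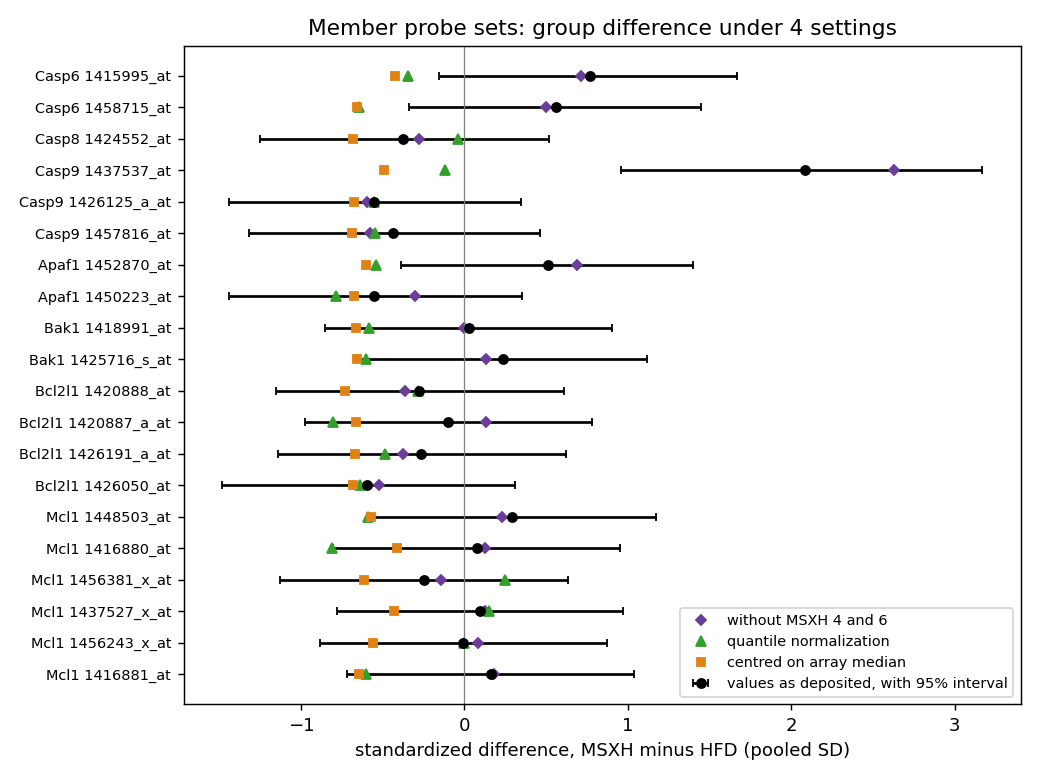
Standardized difference between MSXH and HFD for the 20 probe sets of Casp6, Casp8, Casp9, Apaf1, Bak1, Bcl2l1 and Mcl1 (x axis, in pooled SD; 10 mice per group). Black points with bars are the deposited values with 95% intervals, purple diamonds leave out MSXH 4 and MSXH 6, green triangles follow quantile normalization and orange squares centring. The point furthest from 0 is Casp9 1437537_at at 2.08, and its values after the scalings of all arrays lie below 0.

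Casp9, the initiator caspase of the apoptosome, was measured by 3 probe sets, and they did not move together. At 1437537_at (mean level 7.53) the MSXH mice ran from -19.0 to 48.2 with a median of 22.3 millionths, and the HFD mice from -38.8 to 6.04 with a median of -20.8. Of the MSXH mice, 8 lay above the highest HFD mouse, HFD 5, while MSXH 6 (-19.0) and MSXH 9 (-12.3) lay among the HFD mice. The standardized difference was 2.08 (0.958 to 3.17), and in 94 of the 100 pairings of 1 mouse from each diet the MSXH mouse was higher. It ran from 1.98 to 2.63 when any 1 array was left out and was 2.63 without MSXH 4 and MSXH 6. It was -0.115 after quantile normalization and -0.494 after centring, and 1.53 and 0.983 with these scalings once MSXH 4 and MSXH 6 were left out.

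The other Casp9 probe sets lay on the other side of 0. At 1426125_a_at (mean level 6.98) the MSXH mice ran from -11.1 to 3.03 with a median of 0.0472 millionths, and the HFD mice from -5.82 to 11.3 with a median of 0.636. At 1457816_at (6.79) the MSXH mice ran from -14.7 to 18.5 with a median of -3.63, and the HFD mice from -10.7 to 21.6 with a median of 1.31. The groups overlapped widely at both, and the standardized differences were -0.553 (-1.44 to 0.349) and -0.433 (-1.32 to 0.460). Both were negative under the scalings of all arrays, and 0.167 and 0.486 after quantile normalization without MSXH 4 and MSXH 6. After centring without these arrays they were -0.134 and -0.196. Between mice, with group means taken off, 1437537_at had a Pearson r of 0.130 with 1426125_a_at (Spearman rho 0.132; permutation p 0.579 and 0.571) and of 0.0563 with 1457816_at (rho -0.131; permutation p 0.818 and 0.584). Which transcripts each probe set reads was not looked up.

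**Figure D2:**
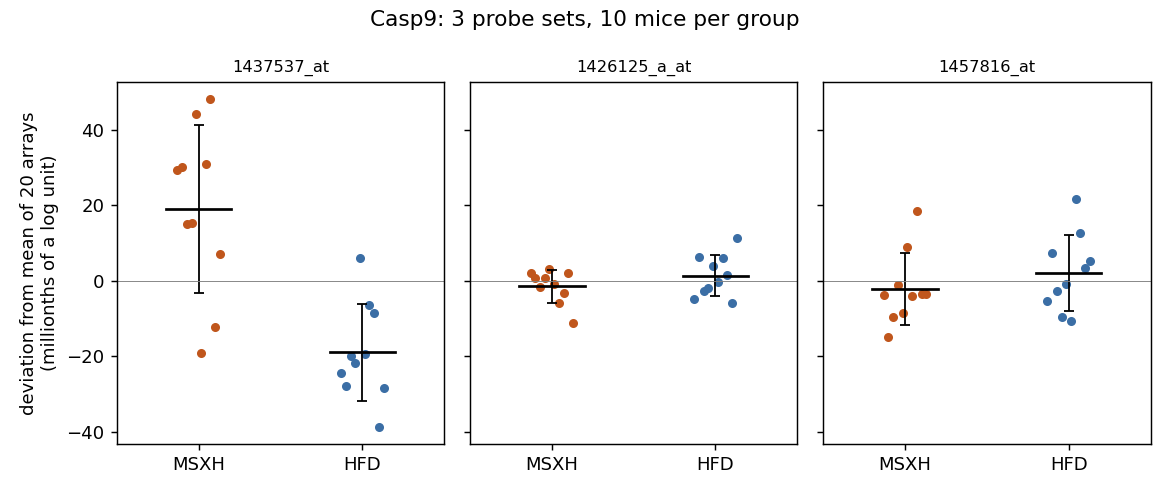
Casp9 in each mouse at its 3 probe sets, as the deviation from the mean of the 20 arrays in millionths of a log unit (y axis, shared), MSXH left and HFD right. Points are mice, the black line is the group mean and the bar is 1 SD (n = 10 each). At 1437537_at 8 MSXH mice lie above all HFD mice, and at the other probe sets the groups overlap.

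Apaf1, which encodes the scaffold of the apoptosome, also differed in sign between its probe sets. At 1452870_at the MSXH mice ran from -39.5 to 41.2 with a median of 0.958 millionths, and the HFD mice from -26.5 to 23.3 with a median of -6.63. At 1450223_at, which lay under every array median at 6.19, the MSXH mice ran from -11.01 to 9.47 with a median of -2.14, and the HFD mice from -4.71 to 7.58 with a median of 1.26. The groups overlapped at both, with standardized differences of 0.513 (-0.386 to 1.40) and -0.551 (-1.44 to 0.351), and the first was -0.538 after quantile normalization and -0.604 after centring. With MSXH 4 and MSXH 6 left out, the first was 0.299 after quantile normalization and 0.380 after centring. The second was then -0.803 and -0.104. The correlation of these probe sets between mice was 0.379 (rho 0.275; permutation p 0.148 and 0.264).

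Casp8, the initiator caspase of the death receptor pathway, was measured by 1 probe set, and its SD over the 20 arrays, 310 millionths, was the highest among the 20 probe sets and at the 94.8th percentile of all. The MSXH mice ran from -631 to 390 with a median of -50.6 millionths, and the HFD mice from -332 to 483 with a median of 78.0. Both groups spanned most of the range. The standardized difference was -0.373 (-1.25 to 0.517), and the MSXH mouse was higher in 41 of 100 pairs. The standardized difference was -0.0385 after quantile normalization and -0.682 after centring. Without MSXH 4 and MSXH 6 it was -0.279 as deposited, 0.422 after quantile normalization and -0.295 after centring.

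Casp6, a caspase of the executioner class, was higher on average in MSXH at both probe sets as deposited and lower under both scalings of all arrays. At 1415995_at (mean level 8.36) the MSXH mice ran from -103 to 127 with a median of 47.7 millionths, and the HFD mice from -102 to 70.7 with a median of -18.6. Of the MSXH mice, 5 lay above the highest HFD mouse, and the lowest mice of both groups lay together. The standardized difference was 0.769 (-0.152 to 1.67), with the MSXH mouse higher in 70 of 100 pairs. At 1458715_at, under every array median at 6.28, it was 0.562 (-0.340 to 1.45) and 67 of 100 pairs. Both were negative after quantile normalization (-0.341 and -0.647) and after centring (-0.426 and -0.656). With MSXH 4 and MSXH 6 left out they were 0.300 and 0.00763 after quantile normalization, and 0.554 and 0.0110 after centring. The probe sets did not follow each other between mice (r 0.0148, rho 0.137; permutation p 0.948 and 0.554).

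**Figure D3:**
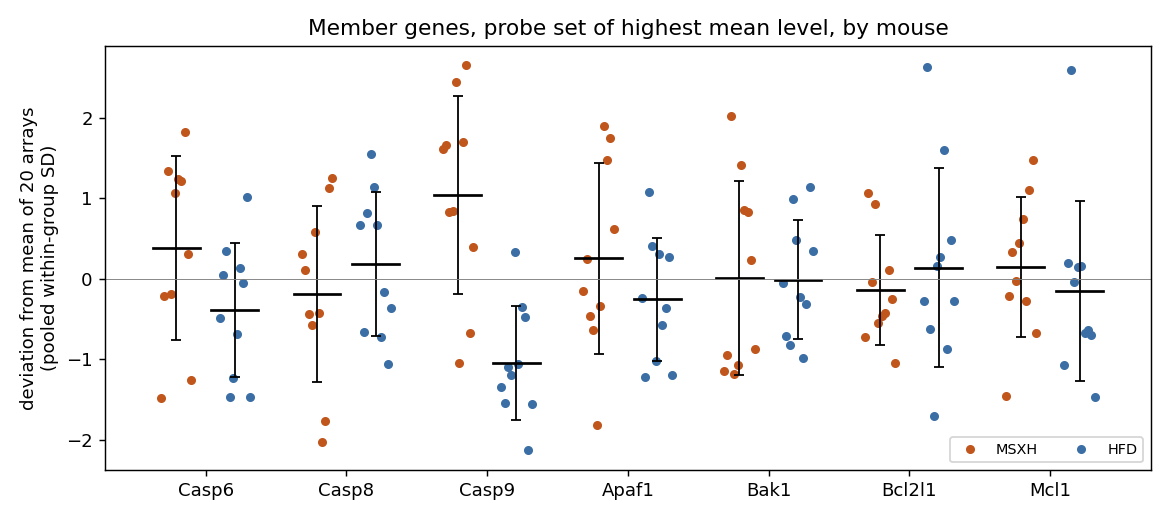
The 7 measured genes at their probe set of highest mean level, in each of 10 MSXH and 10 HFD mice. The y axis is the deviation from the mean of the 20 arrays in pooled SD within groups, lines are group means and bars 1 SD. Casp9 is the gene whose groups lie furthest apart, and for Bcl2l1 and Mcl1 the highest of the 20 mice is an HFD mouse more than 2 SD above the mean.

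Bak1, which encodes the pore-forming effector BAK, had nearly the same mean in both groups. At 1418991_at (mean level 6.79) the MSXH mice ran from -9.50 to 16.2 with a median of -2.58 millionths, and the HFD mice from -7.86 to 9.18 with a median of -1.11. The standardized difference was 0.0274 (-0.850 to 0.904), an interval that leaves room for almost 1 SD on either side. At 1425716_s_at it was 0.239 (-0.645 to 1.12). Both were negative after quantile normalization (-0.584 and -0.600) and after centring (-0.663 and -0.657). With MSXH 4 and MSXH 6 left out they were 0.542 and 0.0794 after quantile normalization, and -0.0474 and -0.000273 after centring. The correlation of these probe sets between mice was 0.470 (rho 0.466), with permutation p 0.0394 and 0.0348, which did not pass 0.05 after adjustment over the 27 pairs of probe sets compared (0.0664 and 0.104). Bax, the other effector, was not analysed here.

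Bcl2l1, the gene of BCL-XL, was lower on average in MSXH at all 4 probe sets, by standardized differences of -0.594 to -0.0996. At 1420888_at (mean level 8.01), the probe set of highest mean, the MSXH mice ran from -50.9 to 51.9 with a median of -16.4 millionths, and the HFD mice from -82.6 to 127 with a median of -2.77. The HFD mice were the more spread, with an SD of 33.3 in MSXH and 60.05 in HFD, and HFD 2 was the highest. The standardized difference there was -0.277 (-1.15 to 0.608), and -0.000260 without HFD 2. The other 3 probe sets, 1426050_at, 1426191_a_at and 1420887_a_at, lay under every array median at 5.75 to 6.28. At 1420887_a_at the standardized difference was 0.132 without MSXH 4 and MSXH 6. After quantile normalization without these arrays it was 0.538 at 1420888_at and 0.516 at 1426191_a_at, but -0.950 at 1420887_a_at and -0.168 at 1426050_at. After centring without them it ran from -0.318 to -0.0411 over the 4 probe sets. The 6 pairs of Bcl2l1 probe sets had correlations between mice from -0.415 to 0.143, and 0 of 6 passed the adjusted permutation test.

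Mcl1, the gene of a short-lived anti-apoptotic protein, was measured by 6 probe sets with mean levels of 8.65 to 9.76 and had no consistent direction between the diets. At 1448503_at the MSXH mice ran from -102 to 104 with a median of 10.97 millionths, and the HFD mice from -103 to 183 with a median of -23.6. At 1416880_at the MSXH mice ran from -232 to 441 with a median of -60.2, and the HFD mice from -276 to 637 with a median of -66.6. The groups overlapped over nearly their whole range. Standardized differences ran from -0.248 (-1.12 to 0.636) at 1456381_x_at to 0.294 (-0.592 to 1.17) at 1448503_at, with 43 to 66 of 100 pairs higher in MSXH. Leaving out MSXH 9 moved these to between -0.558 and 0.151, and leaving out HFD 3 to between 0.0271 and 0.796. After quantile normalization of all arrays 4 of the 6 were negative, and after centring 6 of 6. With MSXH 4 and MSXH 6 left out they ran from -0.453 to 0.959 after quantile normalization and from -0.154 to 0.204 after centring.

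What the 6 Mcl1 probe sets shared was the pattern between single mice. HFD 3 was the highest and MSXH 9 the second highest of the 20 mice at 6 of 6 probe sets. At 1416880_at MSXH 9 stood at 441 millionths and HFD 3 at 637, with MSXH 7 next at 220. At 1456381_x_at MSXH 9 stood at 496 and HFD 3 at 628, with HFD 5 next at 226. At 1416881_at MSXH 9 stood at 55.02 and HFD 3 at 59.5, with MSXH 5 next at 37.7. The distance from MSXH 9 down to the third mouse varied between these probe sets. At 1437527_x_at MSXH 9 stood at 357 and HFD 3 at 507, with MSXH 8 next at 241. At 1448503_at MSXH 9 stood at 104 and HFD 3 at 183, with MSXH 8 next at 78.0. At 1456243_x_at MSXH 9 stood at 268 and HFD 3 at 374, with MSXH 8 next at 95.4. Within its own diet group, HFD 3 stood apart by Dixon's test for a single extreme value (at 95%) at 4 of the 6 probe sets and MSXH 9 at 1. With group means taken off, the 15 pairs of Mcl1 probe sets had a Pearson r from 0.612 to 0.977, all 15 with an adjusted permutation p of at most 0.0136 (over 27 pairs), and a Spearman rho from 0.313 to 0.961, of which 7 passed. Within MSXH r ran from 0.347 to 0.970 and within HFD from 0.789 to 0.988.

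Without HFD 3 and MSXH 9, chosen after their values were seen, r ran from 0.130 to 0.942 over the 15 pairs. The 4 probe sets 1416880_at, 1437527_x_at, 1456243_x_at and 1456381_x_at still had r from 0.752 to 0.942 among themselves over these 18 arrays, against 0.885 to 0.977 over 20. The pair 1416881_at and 1448503_at had r 0.622, against 0.825 over 20. Between these sets of probe sets, r was 0.130 to 0.424 without the 2 mice, so that part of the likeness rested on HFD 3 and MSXH 9. Whether the probe sets share probes was not checked. The median r of the Mcl1 pairs, 0.783, lay at percentile 93.1 of the 9010 genes with several probe sets, whose median was 0.194. Bak1 lay at percentile 77.3, Apaf1 at 69.8, Casp9 at 41.8, Casp6 at 26.2 and Bcl2l1 at 22.3.

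**Figure D4:**
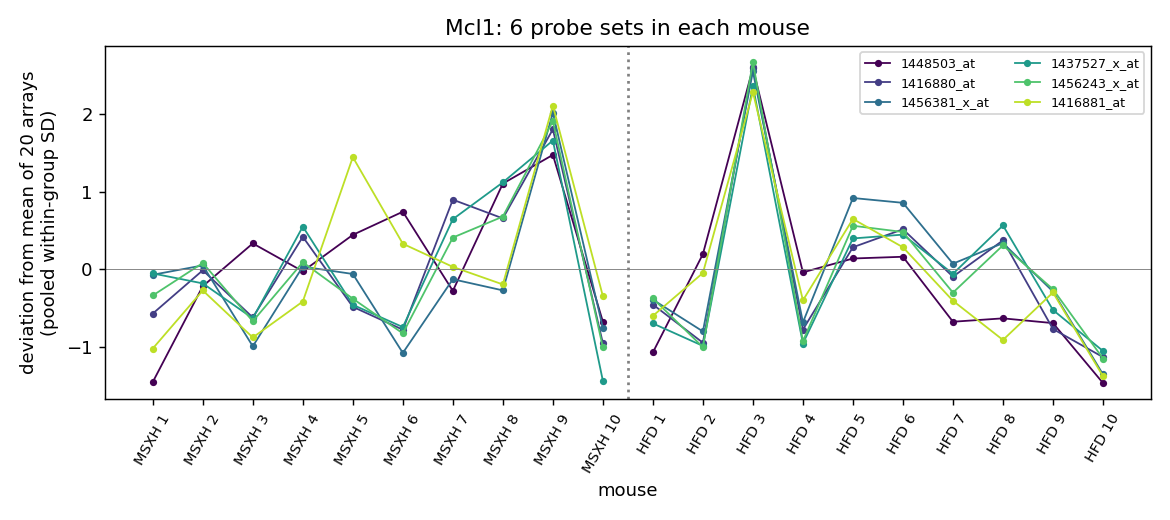
Mcl1 in each of the 20 mice (x axis, MSXH left of the dotted line, HFD right), as the deviation from the mean of the 20 arrays in pooled SD within groups (y axis). Each colour is 1 of the 6 probe sets, and lines join mice only to guide the eye. All 6 have their highest value in HFD 3 and their second highest in MSXH 9.

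In 4 of the 9 marker lists HFD 3 and MSXH 9 both lay within the 4 mice at one end. These mice were taken up for their high Mcl1 values and the 4 lists for the ranks of these mice, so the ranks are a description. The 7 measured hepatocyte markers summed to 95.286 in MSXH 9, rank 17 of 20 from the top, and to 95.268 in HFD 3, the lowest of the 20 mice. Over the groups this sum ran from 95.275 to 95.335 in MSXH and from 95.268 to 95.345 in HFD. The 9 macrophage and Kupffer cell markers, of which 7 had a higher mean in MSXH and 0 were called, summed to between 79.488 and 79.517 in MSXH and between 79.490 and 79.510 in HFD, where MSXH 9 ranked 4 and HFD 3 ranked 2 of 20. The 4 measured neutrophil markers, 3 of them under every array median, summed to between 25.3825 and 25.3848 in MSXH and between 25.3825 and 25.3835 in HFD, with MSXH 9 at rank 2 and HFD 3 at rank 4. The 4 measured cholangiocyte markers, 3 of them under every array median, summed to between 25.88644 and 25.88686 in MSXH and between 25.88645 and 25.88675 in HFD, with MSXH 9 at rank 20 and HFD 3 at rank 18. Between mice, with group means taken off, the mean standardized deviation of the neutrophil list had a Pearson r of 0.516 with Mcl1 at 1448503_at (rho 0.382; permutation p 0.0196 and 0.102, adjusted over the 9 lists 0.176 and 0.488; r 0.369 once the 2 mice most distant from the list's median were dropped). The other 8 lists had r from -0.323 for hepatocytes to 0.304 for stellate cells, with 0.274 for macrophages and -0.0322 for cholangiocytes. None of the 9 passed an adjusted permutation p of 0.05. Without HFD 3 and MSXH 9, r was 0.309 for neutrophils, -0.160 for hepatocytes, -0.214 for macrophages and 0.225 for cholangiocytes. The skeletal muscle list, high in MSXH 4 and MSXH 6, had r -0.0251 and rho 0.0135 with Mcl1 at 1448503_at over the 20 mice.

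Between genes, at the probe set of highest mean, the 21 pairs had a median r of 0.00334 over the 20 mice with group means taken off. The strongest was Casp6 with Casp8, at r -0.621 and rho -0.576 (permutation p 0.00609 and 0.0113), which gave an adjusted p of 0.128 and 0.119 over the 21 pairs, and r -0.573 without the 2 mice farthest from the median. None of the 21 passed an adjusted permutation p of 0.05.

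For each gene the 2 genes of most similar pattern over the 20 arrays, group means taken off, were looked up among 18186 others, and are given as a description. They are the highest of 18186 correlations over 20 arrays, and how high such maxima run by chance was not tested. For Casp8 they were Tapt1 (r 0.935, rho 0.911) and Alg14 (r 0.918, rho 0.925), and for Casp6 Pld1, a phospholipase D (r 0.872), and Amdhd1, an enzyme of histidine breakdown (r 0.823). Bcl2l1 was closest to the transcription factor gene Klf5 (r 0.854) and to Aoc1 (r 0.833). Apaf1 was closest to Ifngr1, a chain of the interferon gamma receptor (r 0.795), and to Stxbp4 (r 0.786), and Bak1 to Stx4a (r 0.799) and Stambp (r 0.791). Mcl1 was closest to the collagenase gene Mmp13 (r 0.781, rho 0.550) and to Amz1 (r 0.735, rho 0.653), which had r 0.582 to 0.698 and 0.490 to 0.632 with the other 5 Mcl1 probe sets. Without the 2 mice farthest from the Mcl1 median these were 0.539 and 0.645. Casp9 had the weakest leading partners of the 7, 4930524C18Rik (r 0.696) and Fam240b (r 0.690). Over the partners of the 7 genes, r without the 2 farthest mice ran from 0.513 for Fam240b to 0.904 for Alg14.

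Around these genes, 42 others of the apoptosis machinery were listed by their roles and not by their values, though earlier results of these data were known. Of the 42, 38 were measured by 88 probe sets. The 3 Bcl2a1 genes and Ripk1 were not analysed here. By limma, 0 of the 88 passed an adjusted p of 0.05, against a background of 0%. Unadjusted, 15 passed 0.05, against 10.7% of all probe sets (3746). Of these, 13 had a higher mean in MSXH and 2 a lower one, against 6.03% and 4.69% of all. The rank sum test passed 0 after adjustment (0% of all) and 13 at an unadjusted p under 0.05, against 9.3% of all (3251). The median standardized difference was 0.217, against 0.0429 over all probe sets, and 54 of 88 had a higher mean in MSXH, against 53% of all. Of the 88, the number higher at that unadjusted p was 0 under both scalings of all arrays, and without MSXH 4 and MSXH 6 it was 13 as deposited, 7 after quantile normalization and 4 after centring, against 5.76%, 6.04% and 1.07% of all probe sets in these settings.

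Htra2, the gene of a mitochondrial serine protease released in apoptosis, had the smallest p of the 88. At 1436269_s_at the MSXH mice ran from -0.0541 to 10.7 with a median of 5.67 millionths, and the HFD mice from -12.8 to 1.29 with a median of -3.46. The groups overlapped narrowly, with the MSXH mouse higher in 98 of 100 pairs, and the standardized difference was 2.44 (1.24 to 3.60) at an adjusted limma p of 0.146. The other Htra2 probe set, 1460495_s_at, stood at 0.0945 (adjusted p 0.960). At 1436269_s_at the value was -0.526 after quantile normalization and -0.623 after centring. Once MSXH 4 and MSXH 6 were left out it was 2.35 as deposited, 0.328 after quantile normalization and 0.248 after centring. Of the 11 probe sets for factors released from mitochondria, 7 had a higher mean in MSXH, with a median of 0.115, against 53% of all probe sets. After quantile normalization of all arrays 2 did, and after centring 0, where the median of all probe sets was -0.591 and -0.662. With MSXH 4 and MSXH 6 left out these counts were 7 as deposited, 9 after quantile normalization and 6 after centring.

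Among the BH3-only proteins, which set off the mitochondrial pathway, 16 of 20 probe sets had a higher mean in MSXH, against 53% of all. The median standardized difference was 0.488. By limma 4 had an unadjusted p under 0.05, all higher, against 6.03% of all probe sets. The 20 probe sets stand for 8 genes and are not independent. After either scaling of all arrays 3 of the 20 had a higher mean in MSXH, and 11 (quantile) and 14 (centred) did without MSXH 4 and MSXH 6. The median of all probe sets was itself -0.591 (quantile) and -0.662 (centred) with all arrays. Without MSXH 4 and MSXH 6 it was 0.0239 and -0.0377. Bik gave 3 of the 4 at that unadjusted p. At 1420362_a_at the MSXH mice ran from -288 to 926 with a median of 182 millionths, and the HFD mice from -1273 to 155 with a median of -212. The standardized difference was 1.36 (0.367 to 2.33; adjusted limma p 0.291), and the other Bik probe sets stood at 1.36 and 1.10 (adjusted p 0.295 and 0.377). At 1420362_a_at it was 0.652 after quantile normalization and 0.755 after centring, in the same direction. At 1420363_at it was -0.0426 and 0.225, and at 1449836_x_at 0.0966 and 0.123. All 3 Bik probe sets were above 0 in the deposited values, as were both of Htra2, while those of Casp9 lay on both sides.

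In the other lists too, no probe set was called, against 0% of all, and 53% of all probe sets had a higher mean in MSXH. Of the 8 probe sets of caspase substrates and the caspase-activated nuclease, 7 had a higher mean in MSXH (median 0.746; 0 after either scaling of all arrays), and Parp1, a DNA repair enzyme cut by caspases, stood at 1.38 at 1443573_at (adjusted p 0.288) and between 0.722 and 0.795 at its other 3 probe sets. Of the 20 for death receptors, ligands and adaptors, 10 were higher and 10 lower (median 0.132). The adaptor Tradd stood at 1.49 at 1452622_a_at (adjusted p 0.270), and at 0.328 and 0.411 at its other probe sets. Of the 7 for inflammatory and other caspases, 3 were higher (median -0.0233), with Casp2 at 0.955 (adjusted p 0.447). Of the 11 for inhibitor of apoptosis proteins, 5 were higher (median -0.0801), with survivin, Birc5, at 0.960 (adjusted p 0.444). The 10 for anti-apoptotic BCL2 proteins were split 5 to 5 (median -0.0227), with Bcl2l2 at -1.34 at 1430453_a_at (adjusted p 0.569). Its other probe sets differed in sign, at 0.741 (1423572_at, mean level 8.16), -0.0628 (1430454_x_at) and -0.366 (1451029_at). With MSXH 4 and MSXH 6 left out, 1430453_a_at stood at 0.790 after quantile normalization and -0.0963 after centring. Bok, a BAX-like protein, stood at 0.153 (adjusted p 0.927). Parp1, Tradd, Casp2, Birc5 and Bok were negative under both scalings of all arrays, as was the median of all probe sets. Without MSXH 4 and MSXH 6, Tradd 1452622_a_at stood at 0.258 after quantile normalization and 0.584 after centring. In the same order, Casp2 stood at 0.714 and 0.370 and Birc5 at 0.436 and 0.298. Parp1 1443573_at stood at -0.409 and 0.536, and Bok at 0.213 and -0.0984. Of the 8 caspase substrate and nuclease probe sets, 3 and 6 then had a higher mean in MSXH.

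**Figure D5:**
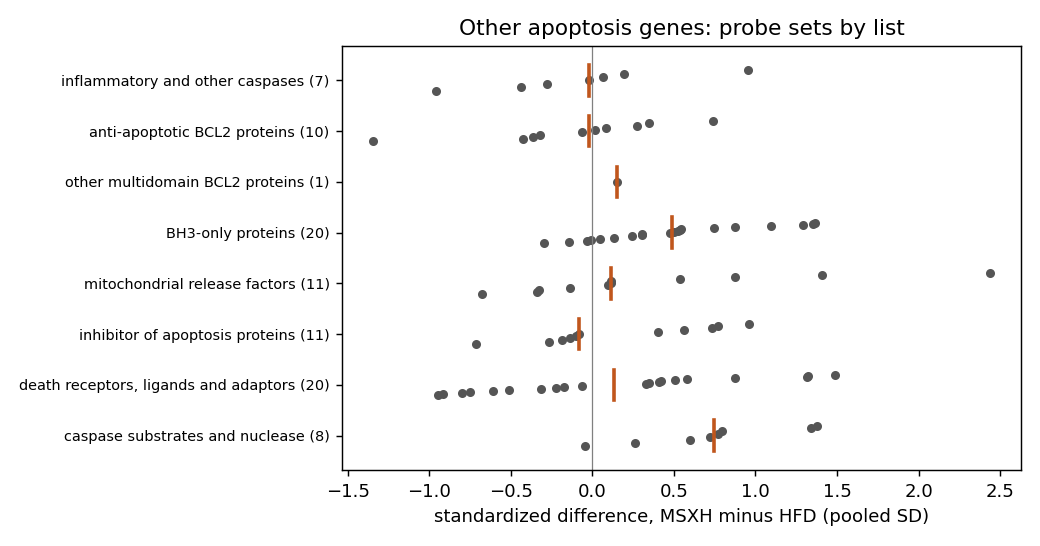
Standardized difference between MSXH and HFD (x axis, in pooled SD) for the 88 probe sets of other apoptosis genes by list (y axis, number of probe sets in brackets). Points are probe sets and orange bars list medians. The largest value is that of Htra2 at 2.44. Most BH3-only and caspase substrate probe sets lie to the right of 0 in these deposited values, though not after quantile normalization or centring of all arrays. After these scalings the median of all probe sets was itself below 0. Without MSXH 4 and MSXH 6, 11 (quantile) and 14 (centred) of the 20 BH3-only probe sets lay to the right of 0. Of the 8 caspase substrate and nuclease probe sets, 3 and 6 did.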

How the data were processed

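Per the labels' protocols, liver RNA of 20 mice was labelled with biotin by an Affymetrix 3′ kit, and each mouse had its own array. The deposited values were taken as log2 levels from their range. For the log base and for how signals were corrected, normalized and summarized, nothing is given in the sources used here. Precision is limited by the number of arrays. The SD over the 20 arrays was under 0.001 log units for 97.6% of probe sets, and why it was so small was not tested. Standardized differences and p-values rest on this deposited spread, and its relation to the spread before processing is not known. The platform annotation gave 1 gene symbol to 34945 probe sets, which were all tested. The other 10092, with several symbols or none listed, and 64 control probe sets were left out.

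Differences between MSXH and HFD were fitted with limma 3.58.1 in R 4.3.3 (eBayes with a trend, two-sided, with 18 residual degrees of freedom and a prior of 0.748, Benjamini-Hochberg over all probe sets at 0.05). Correlations between mice used 100000 permutations of arrays within groups, two-sided, with 1e-05 the smallest p they can give. The fit was checked on simulated data. The genes and lists were chosen with earlier results of these data known. Named genes were all members, the gene of smallest p of each pathway list and the 2 genes of most similar pattern. Same-numbered mice correlated between -0.229 and 0.117, with 2 of 10 above 0.1, so numbers were not taken as pairs. No batch is named in the labels. The limma p-values set a group difference against the spread between these mice in the deposited values. The permutation p-values set a correlation against those of arrays permuted within groups. Figures were drawn with matplotlib 3.10.9 in Python 3.11.15. Alternatives were other scalings, probe set choices, variance models, tests and left-out arrays.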

Additional observations from a re-analysis of the deposited data

Results flagged for a closer look

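In a group of 10 mice, a highest or lowest value was noted when its gap to the next mouse was too large a share of the group's range by Dixon's test at 95%. This was checked in 56 groups, of which chance would give about 1 in 20, and 7 were noted. Of these, 5 were Mcl1. HFD 3 stood apart as the highest HFD mouse at 1448503_at (183 millionths, next 13.95), 1416880_at (637, next 126), 1437527_x_at (507, next 122) and 1456243_x_at (374, next 78.9), and MSXH 9 as the highest MSXH mouse at 1456381_x_at (496, next 12.8). These probe sets followed each other between mice, so the 5 are not independent. For Bcl2l1, HFD 9 was the lowest HFD mouse at 1420887_a_at (-6.48, next -0.866). For Bik, HFD 2 was the lowest HFD mouse at 1420362_a_at (-1273, next -402).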

How the results depend on the processing

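The count of probe sets called was 0 under every alternative but 2 kinds. When probe sets were averaged by gene it was 1, Tnfrsf22 (adjusted p 0.0449, lower in MSXH), a gene named after its value was seen. Over the fits that each left out 1 array it was 0 to 1: Tnfrsf22 was called without MSXH 7 (0.0316) and Scp2 without HFD 8 (0.0180). The caspase and BCL2 family probe sets called, and those of the other apoptosis genes listed here, numbered 0 under every alternative run. Tnfrsf22 and Scp2 are not among the genes listed, so these counts do not cover them. Of the 7 measured genes, 5 had a higher mean in MSXH at the probe set of highest mean, 0 after quantile normalization, 0 after centring, and 4 to 5 when 1 array was left out. Without MSXH 4 and MSXH 6 this number was 5 as deposited, 6 after quantile normalization and 4 after centring. The replicate number as a block gave 0 calls and 3496 probe sets at an unadjusted p under 0.05, against 3746, and changed no call. That count was 1756 after quantile normalization, 424 after centring, and without MSXH 4 and MSXH 6 it was 3491 as deposited, 3980 after quantile normalization and 627 after centring. It was 1885 of 17472 above the median probe set and 1982 of 18193 with 1 probe set per gene, where fewer features were tested. The 88 other apoptosis probe sets at that p numbered 15, 3 after quantile normalization, 1 after centring, and 11 to 19 when 1 array was left out. Without MSXH 4 and MSXH 6 they numbered 14 as deposited, 12 after quantile normalization and 4 after centring. The Casp9 difference at 1437537_at was 3.16 in the replicate block fit (over the SD within pairs). The cause of these changes was not tested beyond the array medians given above.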
